A study of Mus musculus with 2 samples.

Results

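The CC chemokines are small secreted proteins that carry 2 adjacent cysteines near their start and draw leukocytes towards the cell that releases them. The 10 genes described here, Ccl2, Ccl3, Ccl4, Ccl5, Ccl6, Ccl7, Ccl9, Ccl11, Ccl12 and Ccl19, were taken as a fixed list of names. This list was chosen with earlier results of these data known. All 10 were present among the 33696 genes of both count matrices. The study sequenced single cells of the mouse aorta, with 1 library from Kif13b-/- mice and 1 from WT mice, as the sample labels give it; the series' design text speaks of cultured bone marrow macrophages instead. Its title places it in work on macrophage KIF13B, the uptake of dying cells through MERTK, and atherosclerosis. The sample title gives the mutant as Kif13b-/-, whereas its genotype field reads knock down; how many animals went into a library, their strain, age, sex and diet, and the cells in which Kif13b was altered are not given in the sources used here. Kif13b itself was counted at 43.8 CPM (unique molecular identifiers, UMIs, of the gene per 1000000 UMIs) in the Kif13b-/- library and at 70.5 CPM in the WT library. Within macrophage-like cells it stood at 48.2 CPM in Kif13b-/- and 57.2 CPM in WT. A 3' tag can lie outside the altered part of the gene, so these values do not check the genotype labels.

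With 1 library per genotype there is no replicate check on any difference between genotypes. The comparisons below describe these 2 libraries, and every interval covers counting error only. After filtering and removal of likely doublets, 6887 Kif13b-/- barcodes and 16686 WT barcodes were analysed, at medians of 5760 UMIs in Kif13b-/- and 2385 UMIs in WT; 38 barcode sequences occurred in both analysed sets. Because the Kif13b-/- cells held more UMIs each, shares of cells with a UMI are given after every cell was thinned to 1000 UMIs. Cells were grouped with all chemokine ligand genes left out of the clustering, and classes were called "-like" from marker genes. Macrophage-like cells numbered 1251 in Kif13b-/- and 2571 in WT, and their C1qb level (a complement subunit of tissue macrophages) was 2357 CPM in Kif13b-/- and 1990 CPM in WT, against 4.72 CPM and 4.17 CPM in smooth muscle-like cells of the same libraries. A cluster of 1309 Kif13b-/- barcodes and 4 WT barcodes, numbered 27, carried markers of several classes at once and was left unnamed. Mitochondrial genes, mt-Co3 and mt-Nd3 first, stood at the head of its leading genes. The median mitochondrial share of its barcodes was 15.3%, against 7.76% in all analysed Kif13b-/- barcodes. This cluster is part of every value over the whole Kif13b-/- library. It made up 19.0% of the Kif13b-/- barcodes and held between 19.0% and 28.4% of the Kif13b-/- UMIs of each of the 10 genes. Its Ccl4 level, 961 CPM, lay close to the 953 CPM of the Kif13b-/- library as a whole, and 97.5% of its barcodes had a Ccl2 UMI.

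CC chemokines act through G protein-coupled receptors on leukocytes, and several ligands share a receptor. Ccl2, Ccl7 and Ccl12 bind CCR2 and recruit inflammatory monocytes, the precursors of many plaque macrophages. Ccl3, Ccl4 and Ccl5 attract monocytes and T cells, and Ccl3 and Ccl5 bind CCR1. Ccl6 and Ccl9 are CCR1 ligands of rodents made by myeloid cells, Ccl11 (eotaxin-1) acts on CCR3 of eosinophils, and Ccl19 acts on CCR7 to guide dendritic cells and T cells. In the GENCODE M21 annotation of mm10, 9 of the 10 genes lie on chromosome 11 and Ccl19 lies on chromosome 4. The CCR2 ligands and Ccl11 sit side by side on the plus strand, with Ccl2 at chr11:82035571-82037453, Ccl7 at chr11:82045712-82047525, Ccl11 at chr11:82057823-82062955 and Ccl12 at chr11:82101845-82103400. A second group holds Ccl5 at chr11:83525778-83530518, Ccl9 at chr11:83572919-83578636, Ccl6 at chr11:83587882-83593087 and Ccl3 at chr11:83647844-83649355, all on the minus strand, and Ccl4 at chr11:83662584-83664683 on the plus strand. Ccl19, at chr4:42754525-42756577 on the minus strand, has annotated near-copies that could share its reads, so its counts are uncertain in that respect.

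Promoter sequences of RefSeq (GRCm38.p6) were found for 5 of the 10 genes (Ccl3, Ccl6, Ccl9, Ccl12 and Ccl19). Ccl6 and Ccl9 are shown because they are neighbours, are both made by myeloid cells and differed in their genotype ratio. Each is the 250 bases before the transcription start, read 5' to 3' on the minus strand, from chr11:83593088-83593337 and chr11:83578637-83578886 in the order given. Capitals mark matches, on either strand, to the letters of 4 motifs: GGG and TTTCC with 2 bases between them (a form of the NF-kB site), TGA and TCA with 1 base between them (AP-1), GAAA and GAAA with 2 bases between them (the interferon-stimulated response element), and TATAAA (the box near many transcription starts).
Ccl6: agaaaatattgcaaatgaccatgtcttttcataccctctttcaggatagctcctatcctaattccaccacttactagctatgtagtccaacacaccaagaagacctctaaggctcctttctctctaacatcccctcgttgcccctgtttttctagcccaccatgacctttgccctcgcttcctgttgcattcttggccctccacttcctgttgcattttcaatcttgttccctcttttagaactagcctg
Ccl9: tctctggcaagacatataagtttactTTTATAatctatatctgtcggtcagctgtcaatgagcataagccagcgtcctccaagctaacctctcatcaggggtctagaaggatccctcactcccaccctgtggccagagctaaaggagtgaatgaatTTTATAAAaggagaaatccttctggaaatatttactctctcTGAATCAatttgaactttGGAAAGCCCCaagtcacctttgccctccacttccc
Ccl9 held the NF-kB letters from position -35, the AP-1 letters from -53 and TATA letters from -224, -94 and -92, those from -94 and -92 overlapping; Ccl6 held none of the 4 motifs. Among 32851 RefSeq promoters of the same length, 1.41% held the NF-kB letters, 6.75% the AP-1 letters, 2.98% the interferon letters and 12.4% the TATA letters. A match is a description of the sequence and does not show that a factor binds there.

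The 10 genes split between myeloid, lymphoid and stromal sources. In both libraries Ccl4, Ccl9 and Ccl12 were highest in macrophage-like cells, Ccl3 and Ccl6 in neutrophil-like cells, Ccl5 in T cell-like cells, Ccl2 and Ccl7 in fibroblast-like cells and Ccl11 in pericyte-like cells, among the 11 named classes. Ccl19 was highest in fibroblast-like cells in Kif13b-/- and in pericyte-like cells in WT. With classes taken from marker scores, macrophage-like cells led in Ccl3 in both libraries and in Ccl2 and Ccl7 in WT. In that grouping lymphatic endothelial-like cells led in Ccl6 and monocyte-like cells in Ccl9 in Kif13b-/-, and adipocyte-like cells in Ccl19 in WT. Macrophage-like cells led in Ccl6 in WT with chemokine genes kept in the clustering. At a resolution of 2, neutrophil-like cells led in Ccl4 in Kif13b-/-. Smooth muscle-like cells had the lowest level of Ccl2, Ccl3, Ccl4, Ccl6 and Ccl7 in both libraries.

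**Figure D1:**
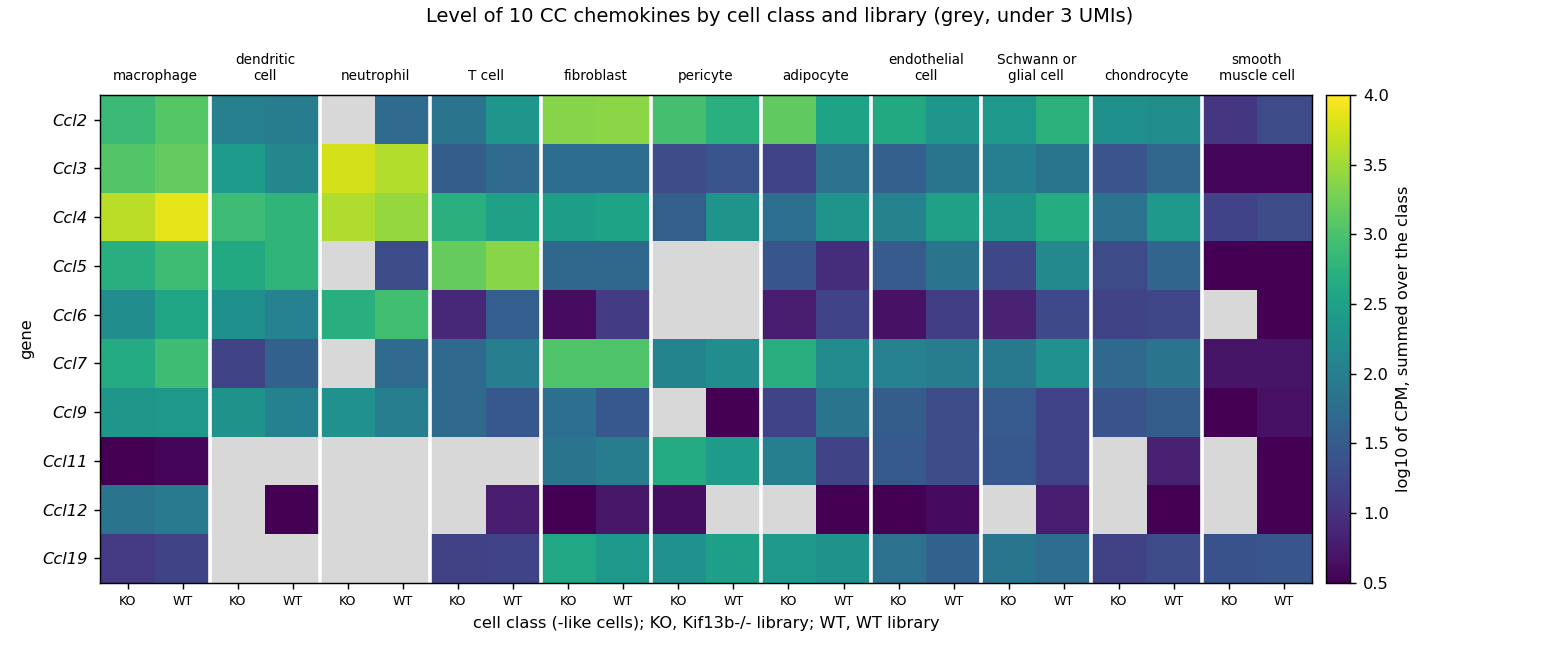
Level of each CC chemokine (rows) in each named class (pairs of columns, Kif13b-/-, marked KO, left and WT right) as the log10 of CPM on a colour scale of 0.5 to 4; grey marks fewer than 3 UMIs. Ccl2 and Ccl7 are bright in fibroblast-like cells and Ccl3 and Ccl4 in macrophage-like and neutrophil-like cells of both libraries.

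Among the CCR2 ligands, Ccl2 reached 2339 CPM in fibroblast-like cells of Kif13b-/- and 2450 CPM in those of WT. In macrophage-like cells Ccl2 stood at 770.5 CPM in Kif13b-/- and 1207 CPM in WT, and in smooth muscle-like cells at 11.5 CPM in Kif13b-/- and 20.2 CPM in WT. The class that followed fibroblasts was adipocyte-like cells in Kif13b-/-, at 1409 CPM, and macrophage-like cells in WT. Ccl7 had the same leading class, at 1098 CPM in Kif13b-/- fibroblast-like cells and 1078 CPM in WT ones, against 444 CPM and 823 CPM in macrophage-like cells. Its level in WT fibroblast-like cells did not differ beyond counting error from that of a small unnamed cluster. Ccl12 behaved otherwise: its macrophage-like level of 70.3 CPM in Kif13b-/- and 88.3 CPM in WT stood above every other class, and fibroblast-like cells held only 4 UMIs in Kif13b-/- and 22 UMIs in WT. Macrophage-like cells thus held 72.1% of all Ccl12 UMIs in Kif13b-/- and 86.1% in WT, but 22.4% and 38.4% of the Ccl2 UMIs. The Kif13b-/- totals include cluster 27, which held 23.1% of the Ccl12 and 23.9% of the Ccl2 UMIs of that library. These shares are therefore not comparable between genotypes.

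Among Ccl3, Ccl4 and Ccl5, Ccl4 was at 4341 CPM in macrophage-like cells of Kif13b-/- and 7328 CPM in those of WT. Neutrophil-like cells followed with 3780 CPM in Kif13b-/- (43 cells) and 2838 CPM in WT (84 cells). For Ccl3 the order of these classes was turned round, with 5940 CPM in Kif13b-/- neutrophil-like cells and 4000 CPM in WT ones, above the macrophage-like levels of 1166 CPM in Kif13b-/- and 1433 CPM in WT. Neutrophil-like cells had fewer than 50 cells in Kif13b-/- and were not compared between genotypes. Ccl5 was highest in T cell-like cells, at 1489 CPM in Kif13b-/- and 2415 CPM in WT, ahead of macrophage-like cells at 497 CPM and 809 CPM and dendritic-like cells at 426 CPM and 609 CPM. T cell-like cells held 13.8% of all Ccl5 UMIs in Kif13b-/- and 24.8% in WT, and the more numerous macrophage-like cells held 41.6% and 52.5%. Cluster 27 held 28.4% of the Kif13b-/- Ccl5 UMIs in these totals. The lead of T cell-like cells in Ccl5 depended on the grouping: with chemokine genes kept in the clustering macrophage-like cells led in both libraries, and in Kif13b-/- dendritic-like cells led at a clustering resolution of 2 and macrophage-like cells when no doublets were removed. With classes taken from marker scores, natural killer (NK) cell-like cells led in both libraries.

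The CCR1 ligands Ccl6 and Ccl9 were myeloid in both libraries. Ccl6 reached 496 CPM in neutrophil-like cells of Kif13b-/- and 877 CPM in those of WT. Dendritic-like cells came next in Kif13b-/-, at 180 CPM against 163 CPM in macrophage-like cells, whereas in WT macrophage-like cells came next, at 358 CPM against 112 CPM in dendritic-like cells. Ccl9 was at 225 CPM in Kif13b-/- macrophage-like cells and 233 CPM in WT ones; in Kif13b-/- the dendritic-like level of 199 CPM did not differ from it beyond counting error, and in WT the dendritic-like level was 109 CPM.

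The other members were stromal. Ccl11 stood at 452 CPM in pericyte-like cells of Kif13b-/- and 274 CPM in those of WT (68 and 128 cells), followed by adipocyte-like cells at 101 CPM in Kif13b-/- and by fibroblast-like cells at 95.3 CPM in WT. Ccl19 was at 398 CPM in fibroblast-like cells of Kif13b-/- and 229 CPM in those of WT. By share of UMIs, unnamed cluster 7, led by Sfrp2, held 26.1% of the WT Ccl19, above the 21.4% of fibroblast-like cells. Ccl19 in this cluster stood at 119 CPM in WT. In pericyte-like cells Ccl19 was at 188 CPM in Kif13b-/- and 295 CPM in WT. Macrophage-like cells held 12.3 CPM of Ccl19 in Kif13b-/- and 16.7 CPM in WT, below the smooth muscle-like levels of 24.1 CPM and 27.6 CPM.

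**Figure D2:**
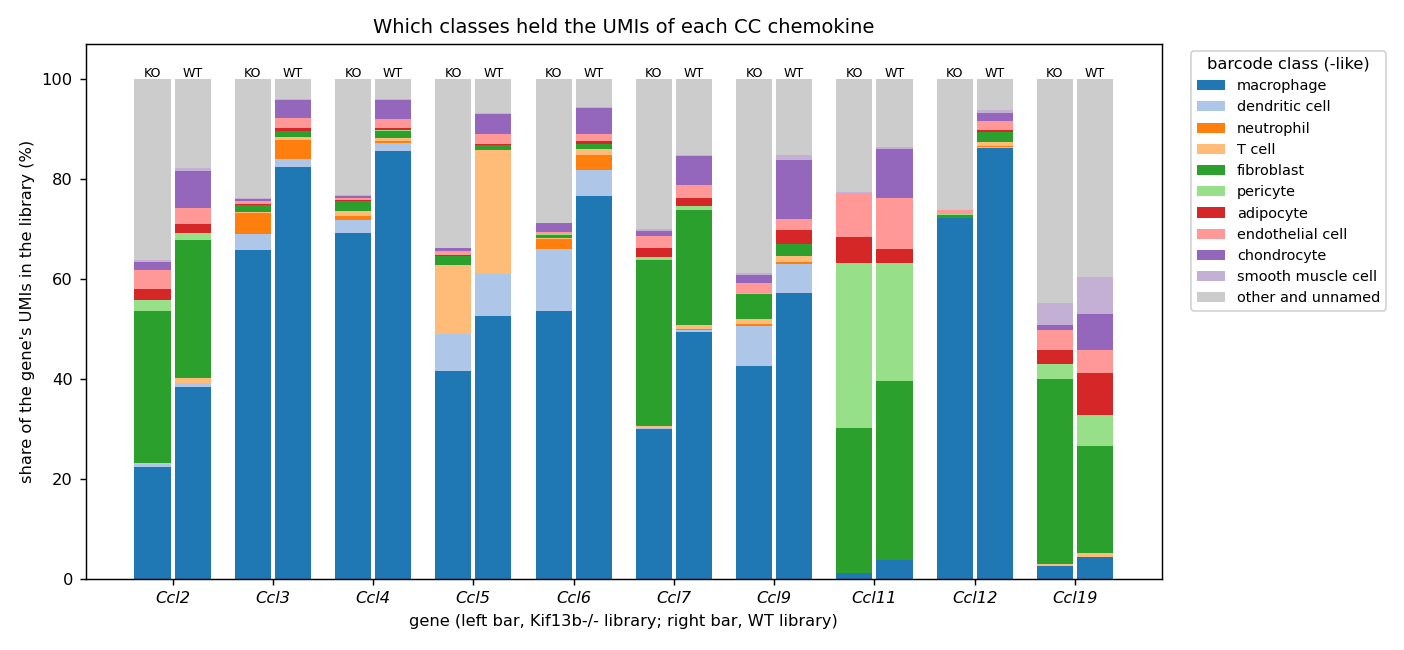
Share of each gene's UMIs in a library (percent, vertical axis) by class (colours, stacked), with Kif13b-/- (marked KO) as the left bar of each pair and WT as the right bar. Macrophage-like cells hold 69.2% of Ccl4 UMIs in Kif13b-/- and 85.6% in WT, while fibroblast-like cells hold 36.9% and 21.4% of the Ccl19 UMIs. The Kif13b-/- totals include cluster 27, with 10842 of 57037 Ccl4 UMIs and 26.6% of the Ccl19 UMIs. Unnamed cluster 7 holds 12.5% of the Ccl19 UMIs in Kif13b-/- and 26.1% in WT.

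Detection in single cells was set against a class that should lack the gene. With each cell thinned to 1000 UMIs, 54.6% of 1115 Kif13b-/- macrophage-like cells and 71.1% of 2147 WT ones had a Ccl4 UMI; 136 and 424 shallower cells were left out. In smooth muscle-like cells, which should lack this leukocyte chemokine, the share was 1.64% in Kif13b-/- and 2.38% in WT. That class had the lowest Ccl4 level of the 11 named ones, with 125 UMIs in Kif13b-/- and 236 in WT. Chondrocyte-like cells held 199 and 3750 Ccl4 UMIs and endothelial-like cells 315 and 1683. The smooth muscle-like share may thus understate the background of other classes. Without thinning, the macrophage-like shares were 72.8% at a median of 3075 UMIs per cell in Kif13b-/- and 78.2% at 1915 UMIs in WT, and the smooth muscle-like medians were 11492 UMIs and 6596 UMIs. The thinned Ccl3 shares in macrophage-like cells were 33.9% in Kif13b-/- and 46.5% in WT, and the Ccl2 shares 29.7% and 38.4%, against at most 0.745% for Ccl3 and 1.94% for Ccl2 in smooth muscle-like cells. In fibroblast-like cells a Ccl2 UMI was found in 55.2% of Kif13b-/- cells and 50.9% of WT ones. Ccl19 was found in 2.78% of Kif13b-/- macrophage-like cells and 2.10% of WT ones, against 2.68% and 2.56% of smooth muscle-like cells. Smooth muscle-like cells held 189 Ccl19 UMIs in Kif13b-/- and 325 in WT and do not lack this gene. The comparison therefore cannot tell whether the macrophage-like Ccl19 was background. Ccl11 was found in 0.179% and 0.373% of macrophage-like cells.

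The UMIs of macrophage chemokines were gathered in a minority of cells. At 1000 UMIs per cell, 9.24% of Kif13b-/- macrophage-like cells and 21.2% of WT ones held 10 or more Ccl4 UMIs, and the highest single cells held 66 and 100. The 10% of cells with most Ccl4 held 64.6% of its UMIs in Kif13b-/- and 48.5% in WT. For Ccl5 the top 10% held 89.1% in Kif13b-/- and 68.7% in WT. Only 14.4% of Kif13b-/- cells and 26.5% of WT cells had a Ccl5 UMI at this depth, so its top share largely follows from detection.

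Macrophage-like cells often carried several members at once. At 1000 UMIs per cell they had a mean of 1.79 of the 10 members in Kif13b-/- and 2.51 in WT. None was detected in 21.3% of Kif13b-/- cells and 14.7% of WT cells, and 3 or more were detected in 28.5% and 49.0%. At 5000 UMIs per cell, which keeps only the deeper cells, the means were 3.41 in Kif13b-/- and 4.22 in WT, and 63.1% and 77.6% of cells carried 3 or more. The WT cells thus carried more members at both depths, by these counts from 1 library each.

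Ccl3 and Ccl4 were the pair found together in most macrophage-like cells: 292 Kif13b-/- cells (26.2%) and 897 WT cells (41.8%) had both, which is 1.41 times and 1.26 times the product of their separate shares. Ccl2 and Ccl7, both CCR2 ligands, shared 109 Kif13b-/- cells and 411 WT cells, 2.05 times and 1.66 times the product. Ccl6 and Ccl9, both CCR1 ligands, shared 33 and 135 cells, 2.04 times and 2.65 times the product. Of the pairs expected in at least 5 cells, 24 of 27 in Kif13b-/- and 32 of 36 in WT were found together more often than the product, at medians of 1.35 times and 1.29 times. Within the deep sub-clusters described further on, the medians were 1.11 times in Kif13b-/- and 1.07 times in WT in the group led by Rsad2, and 1.61 times and 1.23 times in the group led by Lyz1. The pair with the lowest value in Kif13b-/- was Ccl3 with Ccl19, at 0.381 times the product, where WT had 1.00. Ccl19 is a stromal member that was found in few of these cells.

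**Figure D3:**
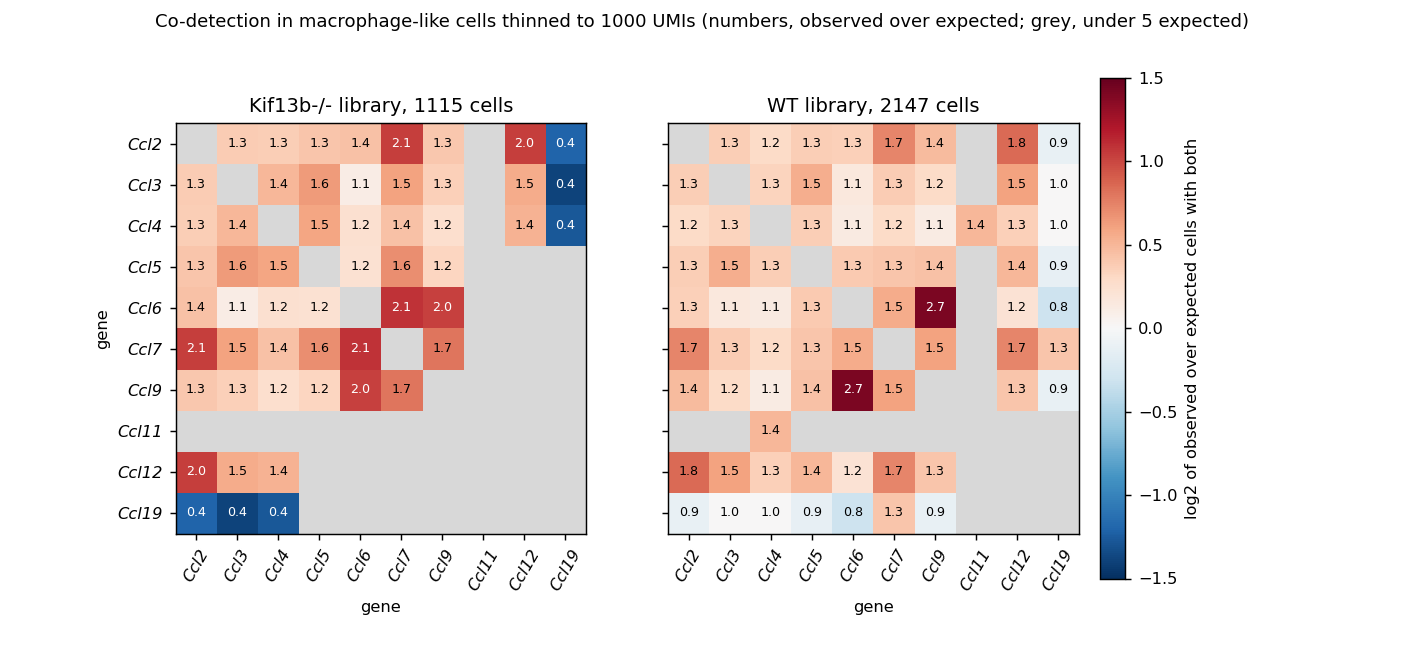
Cells holding both genes of a pair over the number expected from the product of their separate shares (numbers in the squares; colours give the log2), in macrophage-like cells thinned to 1000 UMIs, Kif13b-/- left and WT right; grey marks pairs expected in under 5 cells. Ccl2 with Ccl7 stands at 2.05 and 1.66, and Ccl6 with Ccl9 at 2.04 and 2.65.

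Several of these pairs also had like levels across classes. Over 41 points, each a class in 1 library, log2(CPM + 1) levels of Ccl2 and Ccl7 had a Pearson correlation of 0.93, those of Ccl3 and Ccl4 one of 0.91 and those of Ccl6 and Ccl9 one of 0.74; points of 1 library share its depth and its free RNA, so these are descriptions only. The genes outside the family with the most similar level pattern were Cxcl1 (0.83), Dpt (0.82) and Igf1 (0.79) for Ccl2, and Cxcl1 (0.82) also led for Ccl7. For Ccl3 they were Clec4e (0.95), Tnf (0.94) and Ptafr (0.93), and for Ccl4 Tnf (0.94), Lilrb4a (0.92) and Fcer1g (0.91). Lrrc25 (0.90) led for Ccl6, Frrs1 (0.84) for Ccl9, Ccr2 (0.82) for Ccl5, Pf4 (0.84) for Ccl12, Ms4a4d (0.85) for Ccl11 and Serping1 (0.89) for Ccl19.

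The ratio of 2 members' UMIs differed between classes and between genotypes. The capture of each gene's 3' end is not known, so such a ratio is compared between cells and not read as relative abundance. Macrophage-like cells had 3.72 Ccl4 UMIs per Ccl3 UMI in Kif13b-/- and 5.11 in WT, and dendritic-like cells 2.89 and 4.73, while neutrophil-like cells had 0.636 and 0.709. For Ccl2 per Ccl7, macrophage-like cells had 1.74 in Kif13b-/- and 1.47 in WT, fibroblast-like cells 2.13 and 2.27, and pericyte-like cells 7.85 and 3.25. Ccl6 per Ccl9 was 0.727 in Kif13b-/- macrophage-like cells and 1.54 in WT ones, but 0.905 and 1.03 in dendritic-like cells.

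Between genotypes, the members were nearly level in the libraries as a whole and lower in Kif13b-/- macrophage-like cells. Over all analysed barcodes, 0 of the 10 members passed a ratio of 1.5 in either direction, where 4.50% of 19948 genes with at least 20 UMIs were higher and 8.19% lower at that ratio; log2 ratios of Kif13b-/- over WT ran between -0.51 for Ccl6 and 0.48 for Ccl9. In macrophage-like cells 6 of 10 members were lower in Kif13b-/- at a ratio of 1.5 and 0 were higher, where 8.74% of 14310 genes were lower and 5.00% higher. The median log2 ratio of the members was -0.67, and that of all genes was -0.02. No p-value can be given with 1 library per genotype, and the members were chosen with earlier results of these data known.

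Of the CCR2 ligands in macrophage-like cells, Ccl2 had 7005 UMIs in Kif13b-/- and 13995 in WT, a log2 ratio of -0.65 (95% counting interval -0.69 to -0.61), and -0.56 after thinning to 1000 UMIs, just short of the 1.5-fold line. Ccl7, with 4033 UMIs in Kif13b-/- and 9540 in WT, had a log2 ratio of -0.89 (-0.95 to -0.84). Ccl12, with 639 and 1023 UMIs, had one of -0.33 (-0.47 to -0.18) and did not pass, while after thinning it was at -0.72 (-1.24 to -0.24).

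Of Ccl3, Ccl4 and Ccl5, Ccl4 had 39467 UMIs in Kif13b-/- macrophage-like cells and 84939 in WT ones, a log2 ratio of -0.76 (-0.77 to -0.74) and of -0.84 (-0.90 to -0.79) after thinning. Ccl5 had 4521 and 9374 UMIs and a log2 ratio of -0.70 (-0.75 to -0.65). Ccl3, the member whose levels over classes ran closest to those of Ccl4, had 10597 UMIs in Kif13b-/- and 16614 in WT and a log2 ratio of -0.30 (-0.33 to -0.26), so it did not pass. The intervals of Ccl3 and Ccl4 do not overlap.

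The CCR1 ligands parted. Ccl6 had 1486 UMIs in Kif13b-/- macrophage-like cells and 4154 in WT ones, with a log2 ratio of -1.13 (-1.22 to -1.05). Ccl9, with 2045 UMIs in Kif13b-/- and 2701 in WT, had one of -0.05 (-0.13 to 0.03), and its share of thinned cells was 14.4% in Kif13b-/- and 14.3% in WT, where Ccl6 had 10.0% and 16.5%. Of the stromal members, Ccl11 passed with 12 UMIs in Kif13b-/- and 42 in WT (-1.42, -2.52 to -0.50), which is few UMIs for a class of this size. Ccl19, with 112 and 193 UMIs, was at -0.43 (-0.78 to -0.09).

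**Figure D4:**
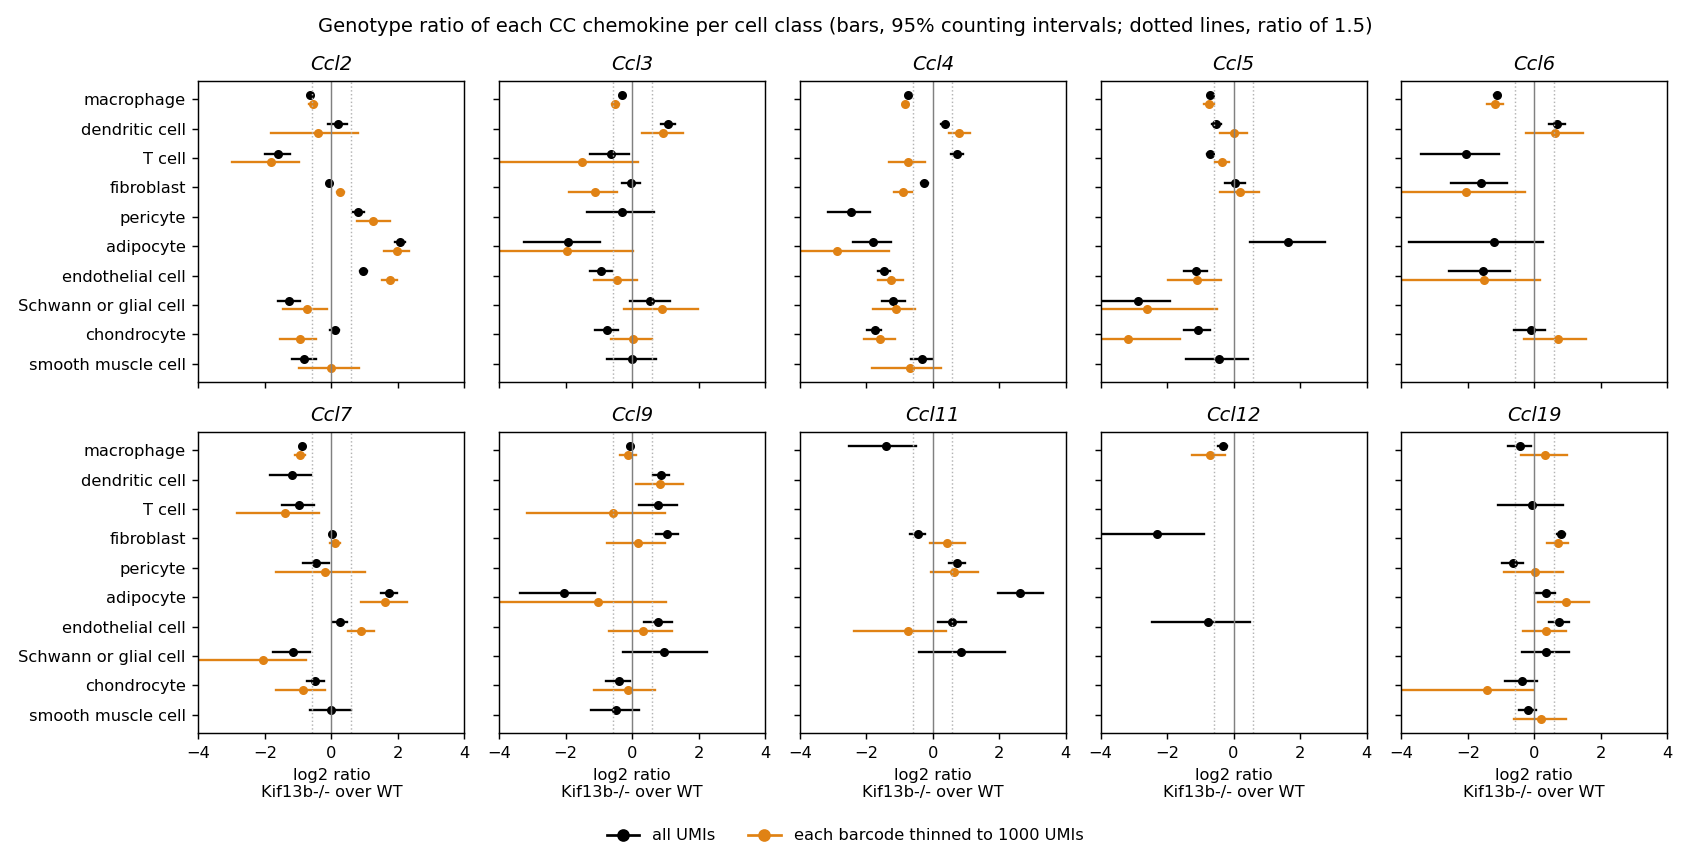
Log2 ratio of Kif13b-/- over WT (horizontal axis) in each class (rows) for each CC chemokine (panels), from all UMIs (black) and at 1000 UMIs per cell (orange), with 95% counting intervals cut off at -4 and 4; dotted lines mark a ratio of 1.5. In macrophage-like cells Ccl6 lies at -1.13 and Ccl9 at -0.05, and in fibroblast-like cells Ccl19 lies at 0.80.

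The macrophage-like class was built from 3 clusters in different proportions. Cluster 15 made up 34.6% of the class in Kif13b-/- and 58.1% in WT. Its leading genes were Ccl6, Il1a, Ccl3, Pf4, Tnf and Ccl4, with Acod1 and Clec4e further down. Cluster 11, with Cd5l, Mmp12, Trem2 and Gpnmb among its leading genes, made up 35.6% and 15.9%. Cluster 10, led by Lyz1 and Fcrls and with Ccl12 and Ccl4 among its leading genes, made up 29.8% and 25.9%. Ccl4 was lower in Kif13b-/- within each of these 3 clusters. At the 1.5-fold line, 6 of 10 members were lower in cluster 15 (8.04% of genes) and 0 higher (7.90%), 5 of 10 were lower in cluster 11 (11.6%) and 1 higher (9.85%), and 5 of 9 were lower in cluster 10 (8.16%) and 0 higher (6.90%). Ccl4 stood at 2412 CPM in Kif13b-/- and 4419 CPM in WT in cluster 15 (-0.87), at 423 CPM and 1504 CPM in cluster 11 (-1.83), and at 5826 CPM and 10013 CPM in cluster 10 (-0.78). Ccl5 was likewise past the 1.5-fold line in all 3, with log2 ratios of -1.37, -0.80 and -0.67 in the same order. In a deep sub-cluster described below, which held most of the Ccl5 UMIs of the class, it was at 0.04. Ccl6 was at -1.75 in cluster 15, -0.43 in cluster 11 and -1.04 in cluster 10, and Ccl7 at -1.25, -0.45 and -0.94. Ccl9 was higher in Kif13b-/- in cluster 11, at 0.81, and at 0.07 in cluster 15 and -0.19 in cluster 10. Ccl2 passed only in cluster 10 (-0.84) among these clusters, and Ccl3 only in cluster 11 (-1.08). Ccl12 passed in cluster 11 alone, with 3 UMIs in Kif13b-/- and 42 in WT (-3.79, -6.33 to -2.35).

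Depth was compared within the class as well. Among cells of 500 to 2000, 2000 to 5000 and at least 5000 UMIs, the log2 ratio of Ccl4 was -1.24, -1.37 and -0.76, that of Ccl6 -1.28, -1.56 and -1.13, and that of Ccl7 -1.30, -1.41 and -0.89. Ccl5 was at -0.91, -1.35 and -0.72. The other members moved with depth: Ccl3 was at -0.97, -1.14 and -0.23, Ccl12 at -2.46, -2.19 and -0.21, and Ccl2 at -0.12, -0.52 and -0.78. Genes of other tissues were present in the class, with Dcn (a fibroblast matrix gene) at 1117 CPM in Kif13b-/- and 1065 CPM in WT and Acta2 (smooth muscle actin) at 1169 CPM and 1215 CPM. On reclustering, sub-clusters led by matrix, fibroblast or smooth muscle genes held 668 Kif13b-/- cells (53.4%) and 1185 WT cells (46.1%), with 29.2% and 33.7% of the class's UMIs. In 1 of them Acta2 was at 3687 CPM in Kif13b-/- and 1137 CPM in WT. In the 537 Kif13b-/- and 1225 WT macrophage-like cells lowest in stromal markers, 6 of 9 measured members were lower at the same ratio (10.2% of genes) and 0 higher (6.03%).

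A pair of deep sub-clusters was low in those genes, with Dcn between 34.4 CPM and 57.5 CPM. The first, of 122 Kif13b-/- and 280 WT cells, was led by the interferon-induced genes Rsad2 and Ifit1 and by F13a1, and held the highest Ccl4 levels, at 15245 CPM in Kif13b-/- and 17923 CPM in WT (-0.23). Of the macrophage-like Ccl4 UMIs, this group held 20134 of 39467 in Kif13b-/- and 40204 of 84939 in WT. For Ccl5 it held 3212 of 4521 and 5313 of 9374 in the same order. It made up 14.5% of the class's UMIs in Kif13b-/- and 19.4% in WT. Its Ccl3 stood at 3078 CPM in Kif13b-/- and 2561 CPM in WT (0.27) and its Ccl5 ratio was 0.04, so Ccl3, Ccl4 and Ccl5 did not pass there. The CCR2 ligand Ccl2 did, at 1218 CPM in Kif13b-/- and 2327 CPM in WT (-0.93), with Ccl7 at -0.80, Ccl12 at -1.63 and Ccl6 at -0.62. The second group, of 254 Kif13b-/- and 379 WT cells, was led by Lyz1, Fgf13 and Stmn1. Mki67, Atp6v0d2, Ctsk and Lpl followed among its leading genes. There Ccl4 was at 3107 CPM in Kif13b-/- and 5962 CPM in WT (-0.94), Ccl5 at 184 CPM and 427 CPM (-1.22), and Ccl6 at -1.09, Ccl2 at -0.70 and Ccl7 at -0.69 also passed, and Ccl12 was at 0.25. At 1000 UMIs per cell the Ccl6 ratio of this second group was -0.26, short of the line, and that of Ccl5 was -0.76. Among all genes, 8.45% were higher and 9.95% lower in the first group, and 7.78% and 6.69% in the second.

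**Figure D5:**
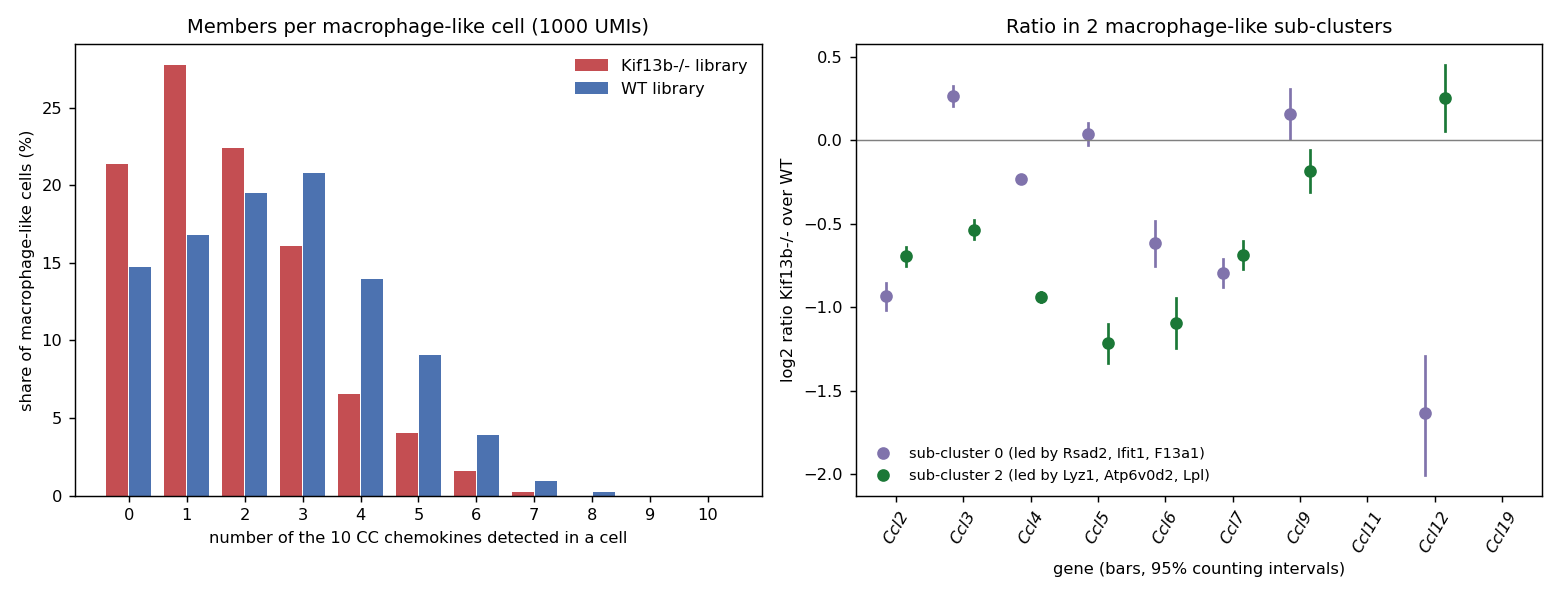
Left, share of macrophage-like cells (percent) by the number of members detected at 1000 UMIs per cell, Kif13b-/- left of WT; right, log2 ratio of Kif13b-/- over WT with 95% counting intervals in the deep sub-clusters, for members with at least 20 UMIs. Cells with 0 members make up 21.3% in Kif13b-/- and 14.7% in WT, and Ccl4 lies at -0.23 in the group led by Rsad2 and at -0.94 in the group led by Lyz1.

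In fibroblast-like cells, the class with the highest Ccl2 and Ccl7 CPM, neither gene passed the 1.5-fold line. Of 10 members 2 were higher (7.06% of genes) and 2 lower (9.08% of genes) in Kif13b-/-. Ccl2, with 9532 UMIs in Kif13b-/- and 10081 in WT, had a log2 ratio of -0.07 (-0.11 to -0.03), and Ccl7, with 4476 and 4435 UMIs, one of 0.03 (-0.03 to 0.09). Ccl19 was higher, with 1621 UMIs in Kif13b-/- and 943 in WT, at 0.80 (0.68 to 0.91), and at 0.70 (0.40 to 1.01) after thinning. Ccl9 was at 1.05, but 5 cells held 122 of its 244 Kif13b-/- UMIs and thinning gave 0.17. Ccl6 (17 UMIs in Kif13b-/- and 53 in WT, -1.60) and Ccl12 (4 and 22 UMIs, -2.31) were the lower ones. Ccl11 was at -0.45 over all UMIs and at 0.44 after thinning.

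Endothelial-like cells had more Ccl2 in Kif13b-/-, at 421 CPM against 216 CPM in WT, a log2 ratio of 0.97 (0.85 to 1.09) and of 1.75 (1.53 to 1.98) after thinning. The 3 clusters of the class differed, with cluster 29 at 1026 CPM in Kif13b-/- and 267 CPM in WT (1.94), cluster 28 at 39.4 CPM and 103 CPM (-1.37), and cluster 21 at -0.49. Ccl9 (0.78) and Ccl19 (0.75) were also higher, while Ccl3 (-0.92), Ccl4 (-1.46), Ccl5 (-1.14), Ccl6 (-1.53) and Ccl12 (-0.77) were lower, which makes 3 higher and 5 lower of 10 where 7.73% of genes were higher and 8.81% lower. Of the lower ones, Ccl12 had only 6 UMIs in Kif13b-/- and 21 in WT, and Ccl6 had 13 and 75. In chondrocyte-like cells 0 of 10 were higher (8.84% of genes) and 5 lower (11.0%), Ccl4 among them at 69.0 CPM in Kif13b-/- and 233 CPM in WT (-1.75). The part that free RNA of other classes had in the leukocyte chemokine values of endothelial-like and chondrocyte-like cells was not tested.

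In dendritic-like cells more members were higher in Kif13b-/- than lower. Of 7 measured members 3 were higher (11.0% of genes) and 1 lower (7.52%). Ccl3 stood at 275 CPM in Kif13b-/- and 131 CPM in WT (1.07, 0.87 to 1.28), Ccl6 at 180 CPM and 112 CPM (0.68, 0.45 to 0.92) and Ccl9 at 199 CPM and 109 CPM (0.87, 0.64 to 1.10). Ccl4, at 795 CPM in Kif13b-/- and 619 CPM in WT, did not pass (0.36), and Ccl7 was lower, at 16.8 CPM and 38.7 CPM (-1.19). Only 141 Kif13b-/- and 270 WT cells carried these values, and after thinning Ccl6 rested on 23 and 29 UMIs.

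In T cell-like cells Ccl5, an effector product of cytotoxic lymphocytes, was at a log2 ratio of -0.70 (-0.78 to -0.61), or -0.35 after thinning. The makeup of the class differed: cluster 13, led by Xcl1 and Eomes, held 70.4% of it in Kif13b-/- and 31.2% in WT. Within cluster 13 Ccl5 was at 2119 CPM in Kif13b-/- and 3964 CPM in WT (-0.90), and within cluster 12 at 291 CPM and 823 CPM. The class counted 2 members higher (11.1% of genes) and 5 lower (14.8%) of 8. One of the higher, Ccl4 at 0.72, had 85.2% of its Kif13b-/- UMIs in 1 cell and stood at -0.73 after thinning.

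Pericyte-like and adipocyte-like cells were few. In pericyte-like cells Ccl11 was at 0.73 (0.49 to 0.97), with 5 cells holding 55.1% of its Kif13b-/- UMIs, Ccl2 was at 0.81 and Ccl19 at -0.65, which became 0.02 after thinning. Ccl4 was at -2.47 there, with 1 WT barcode holding 93.8% of the WT UMIs. In 57 Kif13b-/- and 562 WT adipocyte-like cells Ccl2 was at 1409 CPM and 338 CPM (2.06), Ccl7 at 1.74, Ccl11 at 2.62 and Ccl5 at 1.64, with 5 Kif13b-/- cells holding 56.0% of the Ccl2 UMIs. Ccl3 (-1.92), Ccl4 (-1.78), Ccl6 (3 UMIs in Kif13b-/- and 30 in WT, -1.22, -3.77 to 0.27) and Ccl9 (-2.05) were lower there, which makes 4 higher and 4 lower of 9. Smooth muscle-like cells had 1 lower member of 7, Ccl2 at -0.81, which thinning brought to -0.01, and Schwann-like or glial-like cells had 2 higher and 4 lower of 8. For these classes the background was 11.5% higher and 12.3% lower in pericyte-like cells, 10.6% and 17.5% in adipocyte-like cells, 6.31% and 4.47% in smooth muscle-like cells and 11.7% and 16.7% in Schwann-like or glial-like cells.

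Genes around the pathway in macrophage-like cells were read against the same 5.00% of genes higher and 8.74% lower. Of 15 measured NF-kB target and feedback genes 0 passed in either direction, with a median log2 ratio of 0.01; Nfkbia, the inhibitor of NF-kB, was at 1551 CPM in Kif13b-/- and 1555 CPM in WT, and Tnf at 1659 CPM and 1992 CPM (-0.26). Of 9 immediate early genes 0 passed, with a median of -0.11. Of 6 measured CC chemokine receptors 0 passed, with a median of 0.08, and the receptor Ccr1 was at 50.7 CPM in Kif13b-/- and 55.6 CPM in WT. Of the 5 measured mRNA decay factors Zfp36l1 was lower, at 168 CPM in Kif13b-/- and 267 CPM in WT (-0.67), and Zfp36 was at -0.04. Of 7 other measured CC ligands, Ccl22 was higher (0.80) and Ccl8, a further monocyte attractant, was lower at 53.6 CPM in Kif13b-/- and 205 CPM in WT (-1.94). Ccl24 (11 and 29 UMIs, -1.01) and Ccl21a (1 and 198 UMIs, -6.70, -12.59 to -4.78) were also lower. Among 2 measured atypical receptors, which take up chemokines without signalling, Ackr1 was lower with 2 and 23 UMIs (-2.88, -6.30 to -1.16) and Ccrl2 was at -0.05. Ccl21a and Ackr1 were among the leading genes of an unnamed cluster with lymphatic endothelial markers, and a macrophage-like sub-cluster led by the lymphatic genes Prox1 and Mmrn1 held 1 Kif13b-/- cell and 49 WT cells; its part in these values was not tested.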

How the data were processed

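Each genotype had 1 library of aortic cells made with the 10x Genomics 3' v3.1 kit, per the labels' protocols. The deposited files hold raw UMI counts per gene and barcode from Cell Ranger 8.0.1, per the file headers, on mm10, per the submitters' processing notes. Deposited barcodes numbered 7766 (Kif13b-/-) and 21126 (WT), with 64455003 and 93136569 UMIs, and 52 barcode sequences were in both. Barcodes had to hold 500 UMIs and 300 genes, with no more than 20% of UMIs mitochondrial; 7315 (Kif13b-/-) and 19832 (WT) passed. Doublets were scored with scrublet in scanpy 1.11.5; its automatic threshold marked 0 and 4, so the top-scoring share expected from a rate of 0.8% per 1000 barcodes, 428 (5.85%) and 3146 (15.9%), was removed instead. Leiden clustering in scanpy, without chemokine ligand genes, gave 40 clusters, named from marker lists by thresholds set after the clusters were seen. The members and lists were chosen with earlier results of these data known. UMI counts from the deposited matrices were summed per class and library and given as CPM. Log2 ratios used a prior count of 0.5 and an exact 95% interval of 2 Poisson counts, shares an exact binomial interval. A gene was called at a ratio of 1.5 with at least 20 UMIs, in classes of at least 50 cells in each library. Named genes were the 10 members, up to 4 genes of each list past that ratio in a class (otherwise the 2 with most UMIs) and the genes most like each member. One gene that this rule would name is not reported here. Calculations were tested on simulated data. Alternatives were thinning to 1000 or 2000 UMIs per cell, equal weight per cell, other totals and filters, other clusterings and classes taken from marker scores.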

Additional observations from a re-analysis of the deposited data

Results flagged for a closer look

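Ccl6 ran in opposite directions in the myeloid classes. Its log2 ratio of Kif13b-/- over WT was 0.68 in dendritic-like cells and -1.13 in macrophage-like cells; the difference was not tested, with 1 library per genotype. Over all UMIs Ccl19 did the same in the stroma, at 0.80 in fibroblast-like cells and -0.65 in pericyte-like cells. The pericyte-like value kept its sign in 11 of 12 other settings. After thinning it was 0.02, so the opposite direction did not hold at that setting. The difference between these classes was not tested either.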

How the results depend on the processing

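No paired analysis was possible because each genotype had 1 library. Across 16 other settings, of which 3 were chosen after seeing the data (cluster 27 counted as macrophages, cells of at least 5000 UMIs, the deep sub-clusters), Ccl4, Ccl6 and Ccl7 stayed past 1.5-fold lower in macrophage-like cells in all 16, at log2 ratios of -1.57 to -0.64, -1.73 to -0.87 and -1.30 to -0.64. Ccl5 did so in 15, Ccl2 in 13, Ccl12 in 6, Ccl3 in 2 and Ccl9 in 0. The setting of the deep sub-clusters pooled both groups. In the group led by Rsad2 alone, Ccl4 was at -0.23 and Ccl5 at 0.04, short of the line. Across the 16 settings the count of lower members was 5 to 7. The count of higher ones, 0 as reported, was 1 (Ccl19) when cells were thinned to 2000 UMIs, 2 (Ccl11 and Ccl19) with classes from marker scores and 2 (the same genes) with cluster 27 counted as macrophages. The members' median log2 ratio of -0.67 became -0.88 at 2000 UMIs, -0.78 with equal weight per cell, -0.60 at a clustering resolution of 0.5, -0.88 without the top 1% of cells and -1.08 with cluster 27. The leading source class of a member in a library was unchanged in 11 of 20 cases with classes from marker scores, 17 with chemokine genes kept, 18 at resolution 2, 19 with no doublets removed and 20 at resolution 0.5. When detection needed 2 UMIs, 12 of 12 pairs in Kif13b-/- were found together above the product of their shares, against 24 of 27. Ccl19 in pericyte-like cells turned to 0.0223 when thinned to 1000 UMIs, and Ccl6 in dendritic-like cells to -0.0451 with classes from marker scores; the cause was not tested. Depth limits Ccl11 and Ccl19 most, with 12 and 112 UMIs in Kif13b-/- macrophage-like cells.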
